A study of Drosophila melanogaster with 384 samples.

Results

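Females of the 24 DGRP lines with the highest CycE transcript level were compared with females of the 24 lines with the lowest, 48 of 96 lines and 96 of 384 libraries. The DGRP lines are inbred lines derived from wild-caught Drosophila melanogaster. All flies, in both groups, were mated, aged 3 to 5 days and reared on medium with 10% (v/v) ethanol, and whole flies of 1 line and 1 sex were pooled for each library, with 2 separately collected replicates. The lines were selected on their female CycE values alone: a line's value was the mean over its 2 female libraries of log2(CPM + 1), where CPM is a gene's read count scaled to the library's total over gene models. The groups were not formed by a treatment or a mutation, and no CycE genotype was used.

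CycE encodes Cyclin E, which binds the kinase Cdk2 and drives entry into S phase. In adult females the ovary is the main dividing tissue: germline stem cells in the germarium divide to form cysts, nurse cells and follicle cells then replicate their DNA repeatedly without dividing, and nurse cells load the oocyte with maternal RNA. Late follicle cells secrete the vitelline membrane and the chorion of the eggshell, and yolk proteins come from the fat body and the follicle cells. A whole-fly library mixes all of these with muscle, eye, nervous system, gut and fat body, and in such bulk RNA fewer cells of a type and less RNA per cell cannot be told apart.

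The gene CycE (FBgn0010382) lies on chromosome 2L at 15727581 to 15748150 of release 5 (BDGP5), on the minus strand. Its CPM in high-CycE females was 188 in the lowest line, 212 in the median line and 280 in the highest. In low-CycE females it was 45.7, 112 and 129 CPM. The groups do not overlap because CycE chose them, and these values are a description without a test. On the log2 scale the lines ran without a gap across both limits. The last high-CycE line (DGRP_852) was at 7.55 and the next line outside (DGRP_105) at 7.54, and the first low-CycE line (DGRP_335) and the line just above it (DGRP_589) were both at 6.99.

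The 2 replicates of a line gave the ranking unequal support. Replicates differed by a mean of 0.30 on the log2 scale in high-CycE lines and 0.82 in low-CycE lines, and by more than 0.5 in 5 of 24 high-CycE and 18 of 24 low-CycE lines. Between replicates over 96 lines, Pearson's r was 0.38 (permutation p = 0.00029, adjusted 0.00092 over 4 correlations) and Spearman's rho 0.38 (permutation p = 0.00016). Without the 2 lines farthest from the median r was 0.34. It was 0.33 in the 45 lines run on flow cells A and B and 0.50 in the other 51 lines. In all, 11 lines were among the 24 highest in both replicates, 10 among the 24 lowest in both, and 6 were among the highest in one and the lowest in the other.

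**Figure D1:**
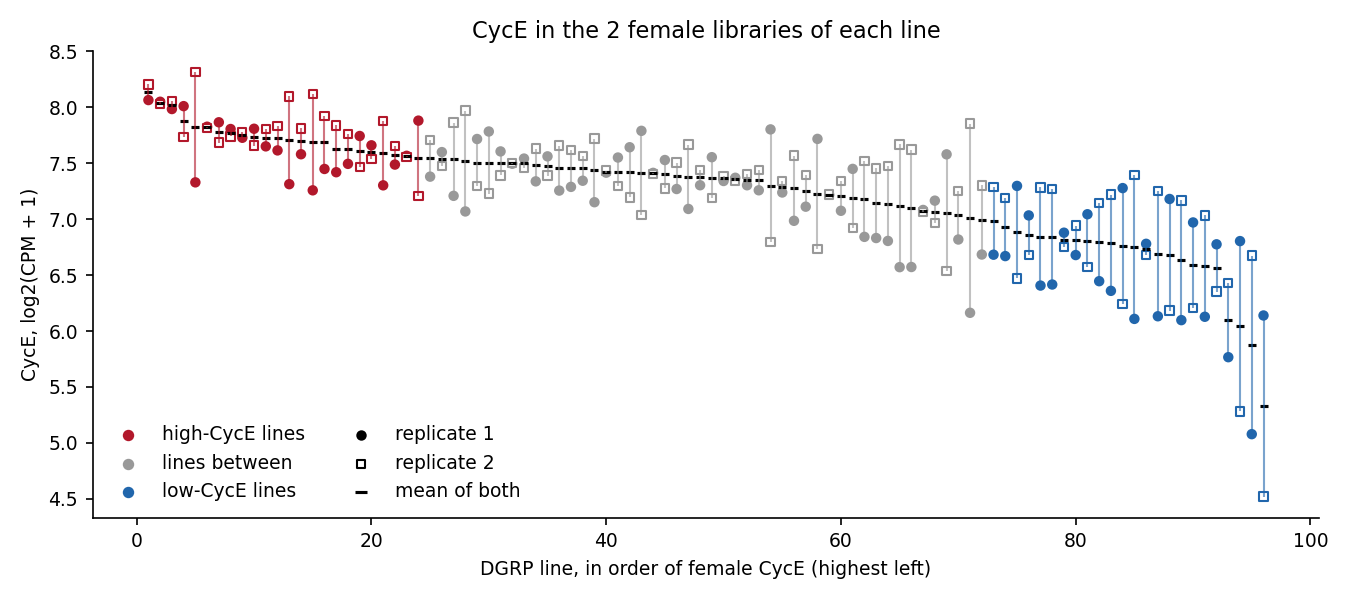
CycE as log2(CPM + 1) in replicate 1 (filled circles) and replicate 2 (open squares) of the females of each of 96 lines, in order of the mean of both (bars). High-CycE lines are red, low-CycE lines blue and the 48 lines between them grey; replicates lie farther apart in the low-CycE lines, where the mean difference was 0.82, than in the high-CycE lines, where it was 0.30.

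Total counts per female library were 5783801 to 14503885 (median 10458310.5) in high-CycE lines and 5356737 to 14162168 (median 9989800) in low-CycE lines. Some female libraries held male transcripts: the summed CPM of accessory gland and ejaculatory bulb genes reached 531 in high-CycE libraries (median 2.8) and 601 in low-CycE libraries (median 1.54). Flow cells A and B held 9 of the high-CycE lines, against 14 of the low-CycE lines, so flow cell and group are partly confounded.

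Between high-CycE and low-CycE females, 4045 of 14735 gene models tested (27.5%) were called higher and 5469 (37.1%) lower, by edgeR's quasi-likelihood test at an adjusted p under 0.05. These calls come from the same libraries that ranked the lines, so they describe what accompanied CycE there and are no independent test. The changes were mostly small, with a median absolute log2 fold change of 0.44 among genes called, and the median over all genes tested was -0.19. For a test on libraries the ranking did not use, lines were ranked on 1 replicate and genes were counted in the other. With replicate 1 ranking and replicate 2 counted, 180 of 14506 (1.24%) were called higher and 373 (2.57%) lower. With the replicates exchanged, 719 of 14626 (4.92%) were called higher and 241 (1.65%) lower. The median over all genes was -0.04 and -0.03 in these fits.

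Genes of the germarium and of cyst differentiation were higher in high-CycE females: 11 of 13 were called higher and none lower, against 27.5% of all genes called higher, with a median log2 fold change of 0.47. The CPM of nanos, a translational repressor that maintains germline stem cells, was 545, 695 and 928 in the lowest, median and highest high-CycE line, against 187, 380 and 533 in low-CycE lines. The groups did not overlap for nanos, with a log2 fold change of 0.87 (SE 0.09). The lines were ranked in these same libraries, so lack of overlap, here and for the genes below, is a description. The share of all genes without overlap is not given here. For bam, which switches stem cell daughters to cyst formation, high-CycE lines had 19.1, 31.2 and 69.5 CPM and low-CycE lines 6.2, 15.2 and 56.8 CPM. The groups overlapped for bam (log2 fold change 0.77, SE 0.19), and only 1 high-CycE line was above the highest low-CycE line. The log2 fold change was 0.50 for twin, a deadenylase that acts with Bam, 0.53 for ovo, a germline transcription factor, 0.57 for otu, 0.57 for stil, 0.47 for stet and 0.45 for zpg, a germline gap junction protein. It was smaller, at 0.20 to 0.21, for mei-P26, hts and pum, which were also called. Not called were bgcn, a partner of Bam with a median near 1 CPM in both groups (0.94 in high-CycE, 1.02 in low-CycE lines), and Sxl, the switch gene of sex determination, at 286 CPM in the median high-CycE and 288 CPM in the median low-CycE line.

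On the replicate that did not rank the lines, all 13 of these genes had a positive difference in both fits, with medians of 0.20 and 0.26. There, nanos was 0.39 higher (edgeR adjusted p = 0.0698) and 0.51 higher (adjusted p = 0.0369). Of the 13 genes 1 and 2 were called higher, against 1.24% and 4.92% of all genes. Meiotic genes moved less uniformly: 7 of 15 were called higher (27.5% of all genes) and none lower, with a median of 0.28. Of the most abundant, okr and spn-A, both in recombination repair, were 0.41 and 0.51 higher. The synaptonemal complex genes c(3)G and c(2)M were not called, at 0.19 and 0.16.

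Partners and regulators of Cyclin E, from the Cdk2 kinase to the ubiquitin ligase that degrades the cyclin, were called higher for 11 of 12 genes (27.5% of all genes), with a median of 0.49. Cdk2 had 52.1, 61.5 and 71.6 CPM in high-CycE lines, against 23.8, 40.7 and 50.7 CPM in low-CycE lines. Its inhibitor dap had 142, 157 and 189 CPM in high-CycE lines and 66.3, 104 and 131 CPM in low-CycE lines. Both were without overlap between the groups, with log2 fold changes of 0.58 (SE 0.07) for Cdk2 and 0.61 (SE 0.06) for dap, so the kinase partner and the inhibitor were higher together. The transcriptional repressors E2f2 and Rbf2 (0.62 and 0.79) differed more than the activator E2f1 and its dimer partner Dp (0.20 and 0.26), and Rbf was at 0.51. Of the ubiquitin ligase, ago, which recognises Cyclin E, was at 0.47, Cul1 at 0.39 and SkpA at 0.16. Of the Cdk-binding Cks proteins Cks30A was at 0.70, whereas Cks85A, at 0.03, was the gene not called. On the replicate not used for ranking all 12 were positive in both fits. With replicate 1 ranking the median was 0.22, and edgeR called 0, with 8 at an unadjusted p under 0.05. With replicate 2 ranking it was 0.27, and 5 were called. Of all genes 1.24% and 4.92% were called higher in these fits.

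Other cyclins, kinases and mitotic regulators (18 of 19 called higher, median 0.62) and DNA replication genes (29 of 30, median 0.66) had larger medians, against 27.5% of all genes called higher. The mitotic cyclin CycB had 1160, 1464 and 1864 CPM in high-CycE lines and 436, 929 and 1501 CPM in low-CycE lines, a log2 fold change of 0.67 (SE 0.08). CycA was at 0.60, the checkpoint kinases grp and lok at 0.60 and 0.53, and CycB3 at 0.90. The exception was Cdk4, the kinase of Cyclin D, at 0.06; it was named after its values were seen. Of the replication genes, dup, the Cdt1 homologue that licenses origins, had 149, 170 and 216 CPM in high-CycE lines and 45.3, 100 and 140 CPM in low-CycE lines. It did not overlap between the groups (0.82, SE 0.08). The ribonucleotide reductase subunits RnrS and RnrL were at 0.72 and 0.73, and the helicase subunits Mcm5 and dpa at 0.66 and 0.64. The gene not called was Psf2, at 0.07, named after its values were seen.

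Replication genes gave the most calls on the replicate not used for ranking when replicate 2 ranked the lines, 23 of 30 higher with a median of 0.41, against 4.92% of all genes. With replicate 1 ranking, all 30 were positive with a median of 0.31, but edgeR called 0, with 24 at an unadjusted p under 0.05, against 1.24% of all genes called. dup was 0.33 (adjusted p = 0.095) and 0.41 (adjusted p = 0.0459) higher. So the direction was the same in both fits while the calls depended on which replicate ranked the lines.

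**Figure D2:**
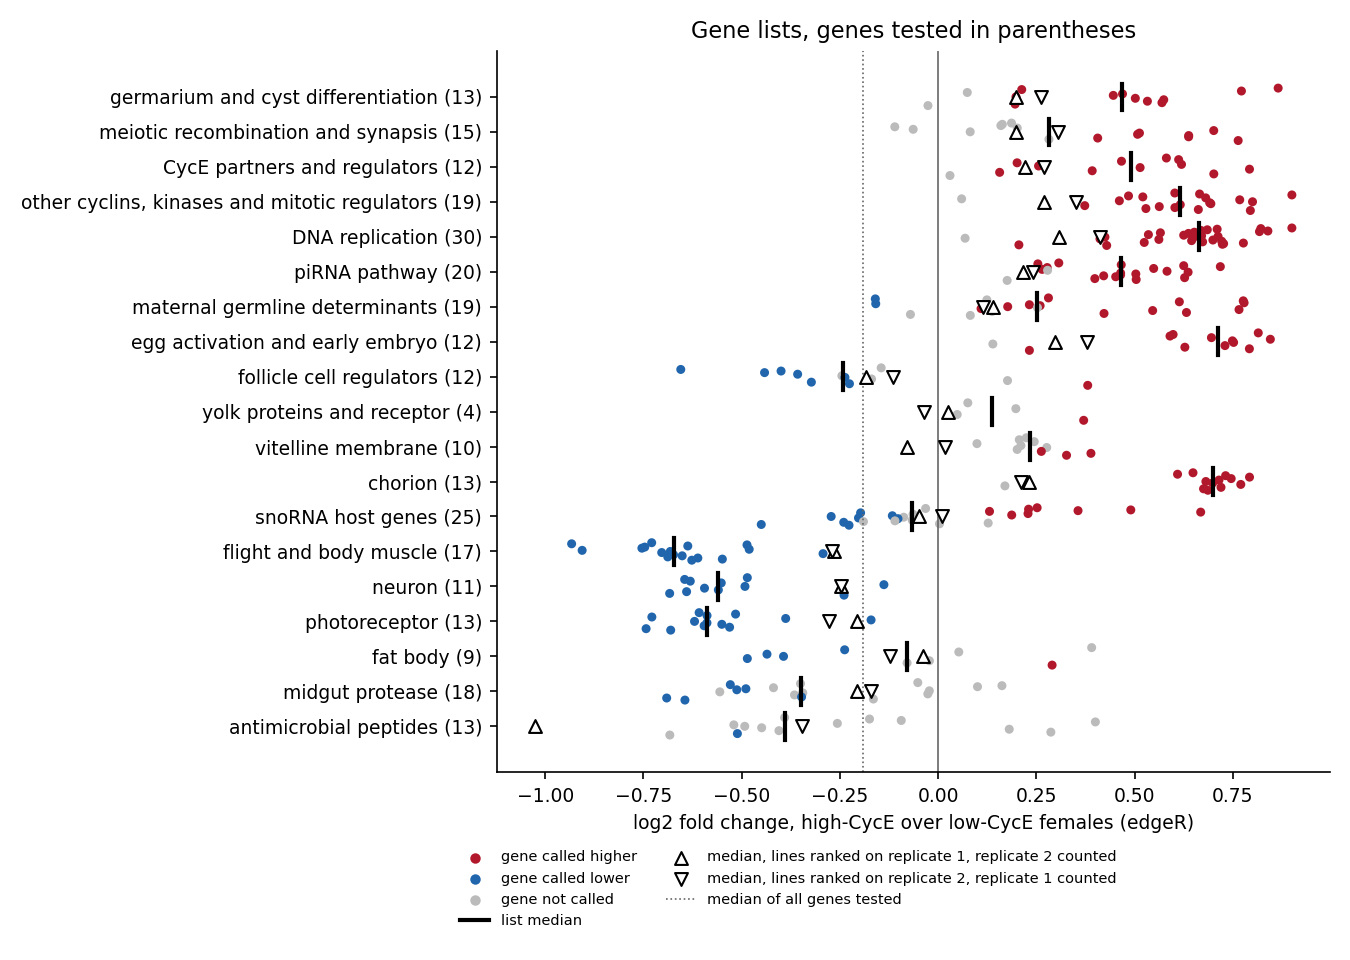
Log2 fold change of each tested gene, high-CycE over low-CycE females, by gene list (red called higher, blue called lower, grey not called; bars are list medians), with the list medians on the replicate not used for ranking as open triangles and the median of all genes (-0.19) as a dotted line. Replication (0.66), egg activation (0.71) and chorion genes (0.70) lie farthest right and muscle genes farthest left (-0.67). The triangles of all 4 lists lie nearer 0: 0.31 and 0.41 for replication, 0.30 and 0.38 for egg activation, 0.23 and 0.21 for chorion, and -0.26 and -0.27 for muscle.

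Genes of later oogenesis were split. Egg activation and early embryo genes, which nurse cells transcribe for the egg, were called higher for 11 of 12 (27.5% of all genes), with a median of 0.71. The RNA-binding repressor smg, which clears maternal RNA in the embryo, had 846, 1038 and 1235 CPM in high-CycE lines and 313, 643 and 783 CPM in low-CycE lines. It did not overlap between the groups (0.75, SE 0.07), and it was called in both fits on the replicate not used for ranking (edgeR, 0.36, adjusted p = 0.0427, and 0.36, adjusted p = 0.0407). Of the 12 genes of the list, smg included, those fits called 1 and 5, with medians of 0.30 and 0.38, against 1.24% and 4.92% of all genes called higher. The maternal tubulin alphaTub67C was at 0.63, the meiotic regulator mtrm at 0.73 and the poly(A) polymerase wisp at 0.75, and fs(1)K10, at 0.14 and named after its values were seen, was not called.

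Of the maternal determinants 12 of 19 were called higher and 2 lower, against 27.5% and 37.1% of all genes, with a median of 0.25. osk, which founds the germ plasm, had 973, 1321 and 1641 CPM in high-CycE lines and 755, 1023 and 1674 CPM in low-CycE lines, overlapping widely at a log2 fold change of 0.28 (SE 0.08). The translational repressors me31B and bru1 were at 0.63 and 0.42. The 2 lower genes were tud, a germ plasm component, and grk, the ligand that patterns the egg, both at -0.16; grk was named after its values were seen, as was bcd, the anterior determinant, at 0.78. Of the piRNA pathway, which silences transposons in the germline, 18 of 20 were called higher (median 0.46), against 27.5% of all genes. The Argonaute proteins piwi, aub and AGO3 were at 0.31, 0.25 and 0.47 and the helicase armi at 0.26. krimp, named after its values were seen, was at 0.72 and was called in both fits on the replicate not used for ranking (edgeR adjusted p = 0.0413 and 0.0346). There, 1 and 3 of the 20 were called, with medians of 0.22 and 0.24, against 1.24% and 4.92% of all genes called higher. The 2 not called, rhi and arx, were named after their values were seen and were at 0.28 and 0.18.

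Follicle cell regulators and yolk protein genes were not higher as groups. Of 12 genes listed as follicle cell regulators 7 were called lower and 1 higher, against 37.1% and 27.5% of all genes, with a median of -0.24. The adhesion protein Fas3 was at -0.36, and the transcription factor tj was not called at -0.15. The gene called higher, at 0.38, was Mat1, a subunit of the Cdk-activating kinase and not specific to follicle cells. Yolk protein genes were not called. Yp1 had 5600, 8795 and 12985 CPM in high-CycE lines and 5228, 8858 and 14272 CPM in low-CycE lines (0.08, SE 0.10), and Yp2 and Yp3 were at 0.20 and 0.05. The oocyte's yolk receptor yl, a germline product, was called higher at 0.37 (SE 0.08). Of 10 vitelline membrane genes 3 were called higher, clos (0.26), fs(1)N (0.39) and fs(1)M3 (0.33), a share near the 27.5% of all genes, and the list median was 0.23. The other members, the Vm genes, Vml and psd, were not called.

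Chorion genes were called higher for 12 of 13 (27.5% of all genes), with a median of 0.70. Cp36 had 568, 1137 and 1617 CPM in high-CycE lines and 393, 730 and 1063 CPM in low-CycE lines, overlapping (0.70, SE 0.13), and dec was not called (0.17, SE 0.16). On the replicate not used for ranking, edgeR called 0 of the 13 in either fit, with medians of 0.23 and 0.21 and with 3 and 0 at an unadjusted p under 0.05. Of all genes 1.24% and 4.92% were called higher there. In the lines on flow cells A and B alone 4 of 13 were called higher, with a median of 0.46, and in the others 12 of 13 were, with a median of 0.97. Of all genes 3869 of 14659 and 3190 of 14772 were called higher in these 2 sets of lines. Of the low-CycE lines 17 were among the 24 with the lowest chorion level and 0 among the 24 with the highest; of the high-CycE lines 3 and 10 were. With the line's chorion level as a covariate, 2728 genes (18.5%) were called higher and 2579 (17.5%) lower. The medians were then 0.32 for the germarium, 0.38 for the partners of Cyclin E, 0.50 for replication, 0.50 for egg activation, -0.36 for the vitelline membrane and -0.20 for yolk.

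**Figure D3:**
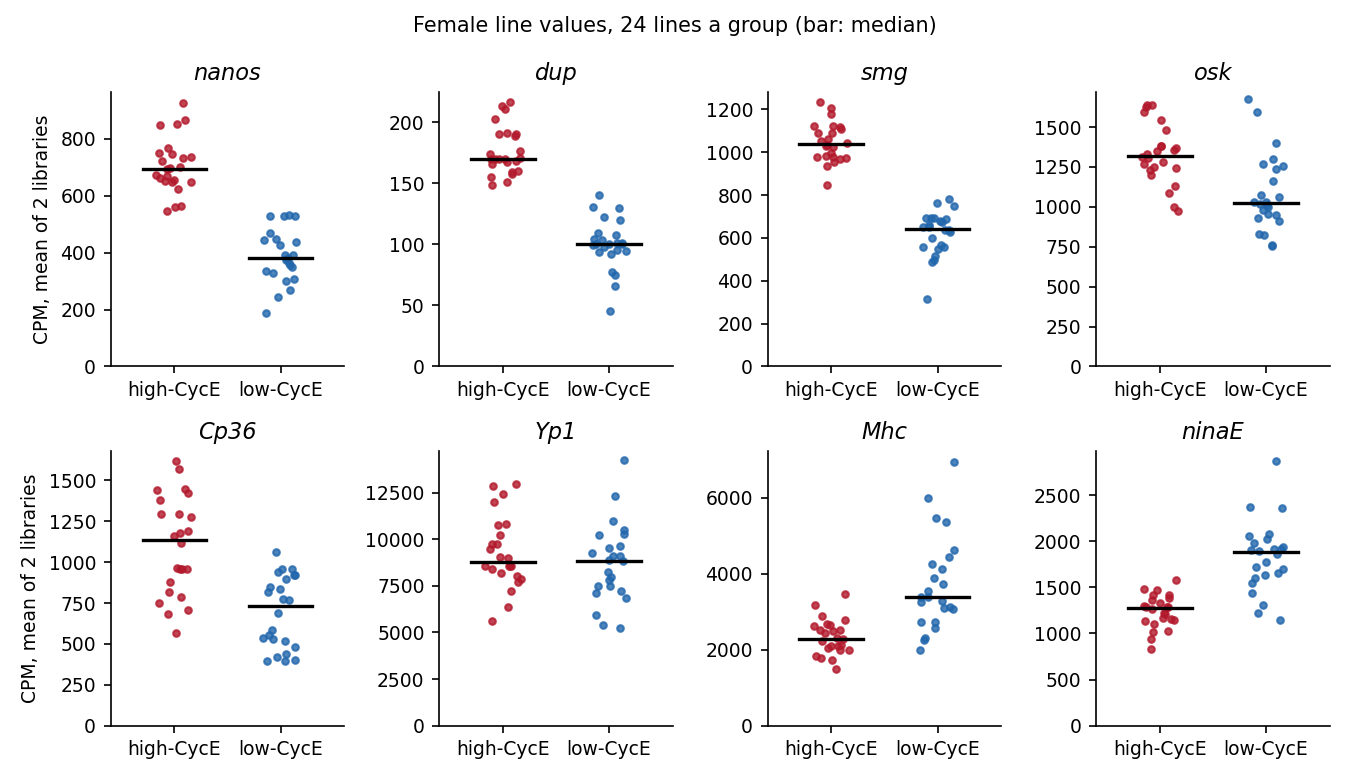
CPM (mean of 2 libraries per line, axes from 0) of 8 genes in the 24 high-CycE (red, left) and 24 low-CycE lines (blue, right), with bars at the medians. The groups do not overlap for nanos, dup and smg, overlap for osk, Cp36 and Yp1, and are lower in high-CycE lines for Mhc and ninaE. The lines were ranked in these same libraries, so the separation is a description.

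Muscle, neuronal and photoreceptor genes were lower in high-CycE females, relative to the other RNA of a library. The amount of their RNA per fly was not measured. All 17 muscle genes (median -0.67), all 11 neuronal genes (-0.56) and all 13 photoreceptor genes (-0.59) were called lower, against 37.1% of all genes. The muscle myosin Mhc had 1481, 2285 and 3473 CPM in high-CycE lines and 1987, 3391 and 6953 CPM in low-CycE lines (-0.73, SE 0.11). The rhodopsin ninaE had 836, 1273 and 1576 CPM in high-CycE lines and 1142, 1880 and 2874 CPM in low-CycE lines (-0.61, SE 0.07). Both overlapped between the groups. The muscle proteins bt and sls were at -0.61 and -0.55, the arrestins Arr1 and Arr2 at -0.52 and -0.59, and the synaptic genes Syt1 and Gad1 at -0.63 and -0.68. On the replicate not used for ranking every gene of the 3 lists was lower in both fits, with medians between -0.21 and -0.28. Of 41 genes edgeR called 2 lower with replicate 1 ranking and 5 with replicate 2 ranking, against 2.57% and 1.65% of all genes.

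Fat body genes were mixed, with 4 of 9 called lower and 1 higher, against 37.1% and 27.5% of all genes. The lipophorin apolpp was at -0.24, Apoltp at -0.44 and Desat1 at -0.39. Of 18 midgut proteases 6 were called lower (median -0.35), with Jon65Aiv at -0.51, a share near the 37.1% of all genes. Of 13 antimicrobial peptides 1 was called lower, Drs at -0.51, a share below the 37.1% of all genes. Of the 12 accessory gland and 13 testis genes tested edgeR called 0, with 1 and 0 at an unadjusted p under 0.05. On flow cells A and B alone, all 12 accessory gland and all 12 testis genes tested were called lower, with medians of -5.53 and -5.10. Of all genes there, 3605 of 14659 were called lower. In the other lines edgeR called 0 in both lists, 11 of 12 and 13 of 13 were positive, and the medians were 1.19 and 0.90. Some female libraries held male transcripts. Without the lines of those libraries, over all flow cells, only 2 accessory gland and 4 testis genes passed the count filter, and edgeR called 0 of them (medians -0.49 and -0.08). Members of these 2 lists are therefore not independent of each other, and the part of the male transcripts in the values by flow cell was not tested. Of 160 snoRNAs tested edgeR called 20 lower and 0 higher, and 25 were lower and 1 higher by unadjusted p, so the share called lower was below the 37.1% of all genes. Their median of -0.41 was not kept on the replicate not used for ranking (-0.02 and 0.26). In the 48 lines between the groups their median slope per unit of log2 CycE was -1.49, with 7 of 166 positive, and edgeR called 0, with 58 lower at an unadjusted p under 0.05. Their 25 host genes were split, 8 higher and 9 lower (median -0.07), against 27.5% and 37.1% of all genes.

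Calls differed with the sex bias of a gene, taken as the log2 ratio of female over male CPM in the 48 lines between the groups, which the comparison did not use. Of 321 genes with a ratio above 3, 77.6% were called higher, with a median log2 fold change of 0.60, and of 1982 genes between 1 and 2, 69.8% were. Of 1367 genes between -2 and -1, 76.9% were called lower, with a median of -0.54, and of 5975 genes between -1 and 0, 58.8% were. The most male-biased genes were an exception: of 616 with a ratio below -2, 28.4% were called lower, with a median of -0.34. Across 14735 genes, which are not independent replicates, r between bias and fold change was 0.41. The 865 genes with a ratio above 2, CycE not among them, held 10.96, 13.0 and 14.1% of the counts in the lowest, median and highest high-CycE line, against 6.27, 10.1 and 11.9% in low-CycE lines. The ovary is the main source of female-biased RNA in adult flies.

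**Figure D4:**
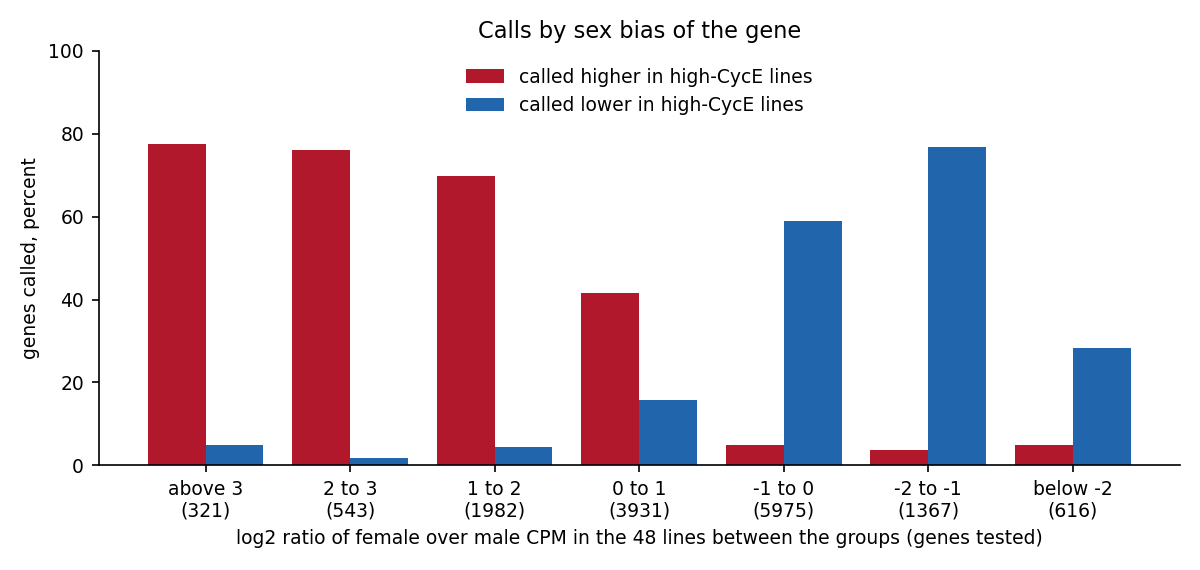
Percent of tested genes called higher (red) and lower (blue) in high-CycE females, by the gene's log2 ratio of female over male CPM in the 48 lines between the groups, with the number of genes in parentheses. Calls are mostly higher among female-biased genes (77.6% above 3) and mostly lower between -2 and -1 (76.9%), but only 28.4% are lower below -2.

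The same relation was present within lines. The difference between a line's 2 replicates in CycE was set against the difference in a list's mean log2(CPM + 1), over 96 lines. Both values come from the same libraries, so the correlations are a description. Pearson's r was 0.94 for egg activation, 0.92 for other cyclins, 0.91 for partners of Cyclin E, 0.90 for the germarium and 0.89 for replication, and Spearman's rho for these lay between 0.89 and 0.94. It was lower for chorion (0.73), meiosis (0.69) and yolk (0.57), and negative for muscle (-0.62) and photoreceptors (-0.76). In the 48 lines between the groups alone it was 0.88 for the germarium, 0.87 for replication and -0.70 for photoreceptors. The replicates of most lines were separate collections of flies that were also run on different flow cells, so collection and flow cell cannot be told apart.

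**Figure D5:**
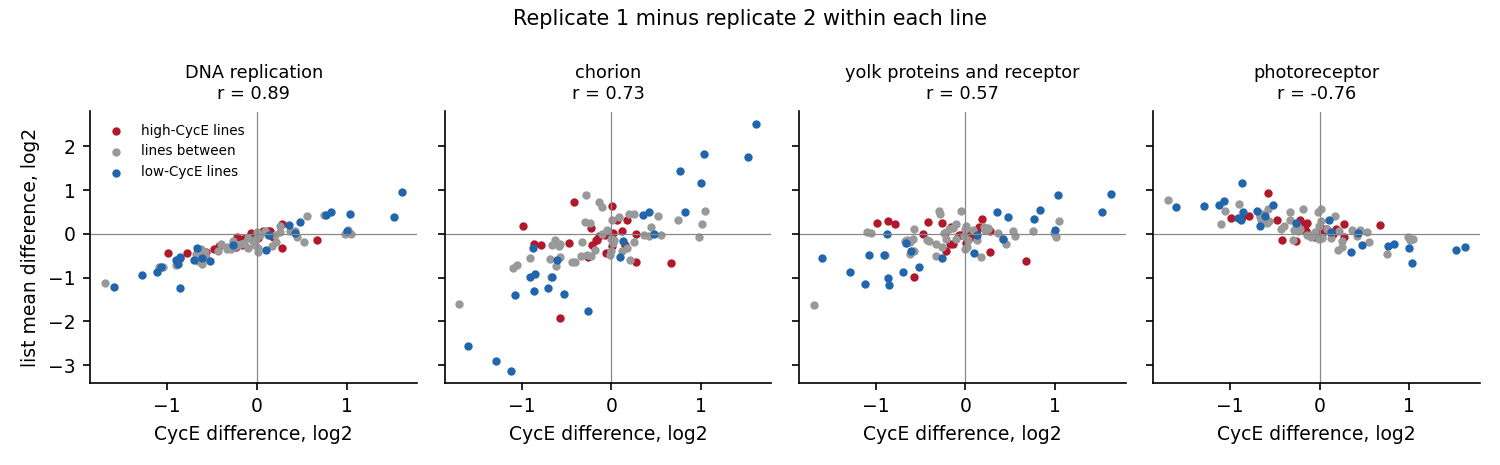
Replicate 1 minus replicate 2 within each of 96 lines, for CycE (x axis, log2) and the mean of 4 gene lists (y axis, log2); red high-CycE, blue low-CycE, grey lines between. Replication genes follow CycE closely (r = 0.89), chorion (0.73) and yolk genes (0.57) less so, and photoreceptor genes run opposite (-0.76).

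In the females of the 48 lines between the groups, a slope on the CycE line value was called positive for 146 of 14744 genes (0.99%) and negative for 73 (0.495%). These lines share no library with the comparison of high-CycE and low-CycE lines. However, each line's CycE value comes from the same libraries in which the genes were counted. The slopes therefore describe what accompanied CycE there and are no independent test. Of the 146, 124 (84.9%) were among the genes called higher there, which is 3.07% of those, and of the 73, 35 (47.9%) were among those called lower, which is 0.64% of those. Of all genes tested there, 27.5% were called higher and 37.1% lower. Per unit of log2 CycE the median slope was 0.41 for the germarium, 0.49 for replication with 7 of 30 called, 0.50 for egg activation with 3 of 12 called, and -0.42 for muscle, where edgeR called 0 of 17 and 6 were lower at an unadjusted p under 0.05. It was -0.04 for neuronal genes, with 3 of 11 positive, and -0.13 for photoreceptor genes, with 5 of 13 positive; edgeR called 0 in both lists, and 0 had an unadjusted p under 0.05. The calls depended on the libraries and the fit: 3 positive and 8 negative slopes were called in the lines outside flow cells A and B, 12 and 15 without replicate 1, and 1 and 2 with the replicate block in limma.

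The 5 annotated genes most correlated with CycE over the 96 lines, of 8872 with a mean of at least 50 counts, were dup (r = 0.94), CycB3 (0.94), smg (0.93), the histone chaperone Nasp (0.93) and the chromatin assembly subunit Caf1-105 (0.93). With CycE from 1 replicate and the gene from the other, r for these lay between 0.30 and 0.42. Beside CycE on the chromosome, ND-B17, a subunit of respiratory complex I, was lower (-0.36) and the RNA helicase gene Mtr4 higher (0.23), and the other 8 neighbours were at or near 0 CPM.

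Some of the largest changes rested on 1 line. The largest, Dhc16F at 4.26, had 413 CPM in DGRP_882 and at most 7.55 CPM in any other line, and it was -1.05 without the lines whose female libraries held male transcripts. For DIP-alpha (1.06) DGRP_730 had 334 CPM, for Cyp4c3 (-2.06) DGRP_355 had 174, for Cyp318a1 (-1.47) DGRP_783 had 126, and for CG13743 (-1.37) DGRP_385 had 128 CPM. Without that line the log2 ratio of group means was 0.11 for DIP-alpha, -0.11 for Cyp4c3, -0.41 for Cyp318a1 and -0.52 for CG13743. For 2 more genes the highest line made part of the difference. Hsp70Bb (-2.34), a heat shock gene, reached 93.8 CPM in low-CycE line DGRP_900, and its log2 ratio of group means was -2.41 with that line and -1.51 without it. phu (-1.52) reached 272 CPM in low-CycE line DGRP_385, against 78.0 CPM in the next line, and the ratio was -1.41 with that line and -0.98 without it.

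Others were spread over the lines. The relaxin-like peptide Ilp8 (1.08) had 32.3, 46.7 and 68.8 CPM in high-CycE lines and 6.79, 22.02 and 42.04 CPM in low-CycE lines. The mucin Muc12Ea was at 1.20, pon at 1.12, lncRNA:CR43837 at 1.09, CG15721 at 1.08, the recombination gene Xrcc2 at 1.02, CG15047 at 1.01 and CG2961 at 0.99. Lower were CG10725 (-2.004), lectin-24A (-1.55), the cuticle gene Cpr92F (-1.45), CG17234 (-1.35) and CG14257 (-1.29).

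Males of the same 48 lines were not used by the ranking. CycE in males had 5.90, 10.5 and 22.6 CPM in high-CycE lines and 6.63, 10.4 and 15.0 CPM in low-CycE lines, a log2 fold change of 0.11 (SE 0.11, edgeR adjusted p = 0.801). Over 96 lines male and female CycE had r = 0.06 (permutation p = 0.575, adjusted 0.93 over 5 correlations) and rho = 0.01 (permutation p = 0.912), and r was -0.01 without the 2 farthest lines, 0.17 on flow cells A and B and -0.02 in the other lines. Of 18892 genes 52 (0.275%) were called higher and 28 (0.148%) lower. Those higher included chorion genes, Cp36 and Cp38 at 5.21 and 5.01, in male libraries of which some held yolk protein transcripts: up to 3959 CPM in high-CycE libraries (median 19.3) and 1067 CPM in low-CycE libraries (median 14.7). Without the lines of such libraries (4 high-CycE and 1 low-CycE) 43 genes were called higher and 17 lower. The part of these libraries in the chorion calls was not tested. Of the annotated genes called in males that averaged 50 counts or more and kept their sign in each replicate alone, the largest changes were those of CG7298 (2.27), gudu (-0.50), CG34216 (-0.38) and CG43675 (-0.28).

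A test of the difference between the sexes, with line as a block, compared the signed high minus low difference. That difference was called more positive in females than in males for 4167 of 18013 genes (23.1%) and more negative for 5091 (28.3%). The test's female libraries are those that ranked the lines, and its male libraries are not. A difference in females, in either direction, was thus favoured by the ranking, and the calls are a description and no independent test. More positive in females were 29 of 30 replication genes, 11 of 12 partners of Cyclin E and 7 of 13 germarium genes. More negative were all 17 muscle and 12 of 13 photoreceptor genes. In males the list medians were 0.06, -0.01, 0.08, -0.04 and -0.01 for these 5 lists, against 0.66, 0.49, 0.47, -0.67 and -0.59 in females.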

How the data were processed

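Total RNA of pools of whole flies was depleted of ribosomal RNA and made into directional, size-selected libraries. Per the labels the authors used cutadapt 1.6, BWA 0.7.10, STAR 2.4.0e and HTSeq on BDGP5, and they deposited raw read counts per gene model for each library, without normalization. HTSeq-count ran in intersection-nonempty mode, so reads matching several genes are lost. Alignments not unique (25.8%), without a feature (2.85%) or ambiguous (1.39%) and gene models marked ribosomal (162) or mitochondrial (35) were left out.

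Counts were summed over the 2 replicates of a line and tested with edgeR 4.0.16 in R 4.3.3 (quasi-likelihood F-test, TMM, a mean of at least 5 counts, Benjamini-Hochberg adjustment, threshold 0.05), so that the line was the replicate. CycE was left out of the female fits. The cross-replicate fits used single libraries. The slope in the 48 lines between the groups and the sex difference were fitted likewise, with line as a block for the sex difference. limma 3.58.1 and DESeq2 1.42.0 served as alternatives, and correlations used 100000 permutations in SciPy 1.17.1.

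The gene lists, the rule for named genes and the alternatives were chosen with earlier results of these data known, and so was the comparison itself. Named were the 10 annotated genes with the largest change in each direction (mean of at least 50 counts, same sign in each replicate alone), the 3 largest in males and in the sex difference, the 5 most correlated with CycE, its 5 neighbours on each side, the 2 to 4 most abundant members of a list and all members of the lists of the germarium and of Cyclin E partners. Of 331 list members sought 322 were matched, and Orc3 and cup were at 0.

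On simulated counts for high-CycE against low-CycE females (14736 genes), 91 of 100 genes changed by 0.5 and 98 of 100 changed by 1 on the log2 scale were recovered, with 10 false calls. There, each gene was drawn independently, only the more abundant genes were changed, and no gene ranked the lines. The false calls of the comparison itself, where genes vary together and CycE ranked the same libraries, were thus not measured. Replicates were separate collections of flies. Wolbachia status was not fitted, promoter sequences were not analysed here, and the standard medium was not analysed here.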

Additional observations from a re-analysis of the deposited data

Results flagged for a closer look

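The signed high minus low difference of 4167 genes was more positive in females than in males, and that of 5091 genes was more negative, by edgeR's interaction test. The female libraries also ranked the lines, so these calls are no independent test. By size the genes named from the interaction test were PpN58A (2.32), asRNA:CR44267 (1.72) and CG5347 (1.61), more positive in females, and CG44388 (-3.96), CG32718 (-2.94) and CG15873 (-2.30), more negative in females. All 6 had a median at or near 0 CPM in females of both groups, and no female line was above 3.9 CPM (PpN58A, a high-CycE line), which is a few counts.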

How the results depend on the processing

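Counts are genes called higher, then lower, and the alternatives that leave out lines were chosen after seeing the data. In females (4045 and 5469) the calls fell to 180 and 373, and 719 and 241, on the replicate that did not rank the lines. The lower calls were 2950 with a mean of at least 50 counts, 3605 in lines on flow cells A and B, 3598 in the others and 2579 with chorion level as a covariate. The replicate block gave 4103 and 4527. Replicate numbers were not used to pair lines in the main fits. The median correlation of same-numbered libraries of high and low lines was 0.03 in females and 0.087 in males. It was -0.02 and -0.085 for libraries with different numbers. Of the same-numbered pairs 34.5% in females and 43.9% in males were above 0.1.

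Male calls (52 and 28) were 291 and 83 without a filter, 1 and 0 with at least 50 counts, 4 and 1 in DESeq2, 34 and 17 with the set of flow cells as a covariate, 17 lower in lines on flow cells A and B, 0 and 0 outside them, and 0 and 0 in limma, with the replicate block and with flow cell as a covariate, where 1426, 1596, 1947 and 2237 genes had an unadjusted p under 0.05 (outside A and B, limma, block, flow cell). Lower calls were 14 without lines holding male transcripts in females, 17 without those holding yolk transcripts in males and 45 without the 4 lowest lines. CycE in males stayed between 0.03 and 0.26 (adjusted p 0.679 to 0.965) over 13 alternatives. Differences called more negative in females than in males (5091) were 3275 with at least 50 counts, 2982 with the replicate block and 2744 on flow cells A and B. They were 3043 outside those flow cells and 2491 to 3437 leaving out a replicate. In the middle lines (146 and 73) calls were 616 higher with total counts, 234 higher in DESeq2, 85 and 14 in limma, 151 lower without a filter, 45 lower with at least 50 counts, 1 and 2 with the replicate block, 3 and 8 outside flow cells A and B, 37 and 42 without lines holding male transcripts, and 12 to 538 and 15 to 304 leaving out a replicate.

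Of 112 genes named in females 97 were called. Of those, Dhc16F reversed to -1.05 without lines holding male transcripts, Hsp70Bb to 0.87 with replicate 1 ranking and phu to 0.0087 with replicate 2 ranking. The others that reversed were not called. In limma bgcn was -0.077 and Yp3 -0.107, and with the replicate block Yp3 was -0.085. Leaving out replicate 1 or 2 gave -0.13 to 0.288 for bgcn, -0.0104 to 0.0239 for Cks85A, -0.014 to 0.0948 for Yp1 and -0.0455 to 0.0724 for Yp3. With the set of flow cells as a covariate bgcn was -0.0422, and on flow cells A and B bgcn was -0.44, dec -0.10 and rhi -0.0484. Sxl was 0.0065 with DESeq2 size factors, 0.0067 in DESeq2 and 0.0065 outside flow cells A and B. With replicate 1 ranking Sxl was 0.0499, c(3)G -0.0276, dec -0.0865, Yp1 -0.049, Yp2 -0.0514 and rhi -0.37. With replicate 2 ranking Sxl was 0.0094, dec -0.0514, Yp1 -0.14, Yp2 -0.040, Yp3 -0.0346 and fs(1)K10 -0.0288. With chorion level as a covariate Sxl was 0.019, c(2)M -0.0569, Psf2 -0.0159, dec -0.52, Yp1 -0.22, Yp2 -0.18 and Yp3 -0.22. With 12 lines a group Yp1 was -0.0702 and rhi -0.0919. Without lines holding male transcripts bgcn was -0.28, and without those holding yolk transcripts in males Yp3 was -0.0639. The cause was not tested.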
